A study of Mus musculus with 12 samples.

Results

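Blood vessels of the hippocampus were followed through 32 marker genes of their walls: 22 genes of blood-brain barrier endothelium, 7 of pericytes and mural cells in general, and 3 of contractile smooth muscle. They were taken by symbol from the 24736 genes of a total RNA table. All 32 were measured in all 6 libraries and passed the filter on low counts, along with 18060 genes in all. The tissue was the hippocampus of male mice aged 4 months: 3 APP/PS1 transgenic mice, which carry APPswe and PSEN1dE9, and 3 wild-type (WT) littermates. Strain and transgene promoters are not stated in the labels. Each mouse was taken to have given 1 stranded total RNA library, and a second set of small RNA libraries, 3 per genotype, was used for vessel miRNAs.

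Endothelial cells line the vessel, and in the brain they are sealed by tight junctions, express transporters that feed the tissue and efflux pumps that keep compounds out, and carry receptors for growth factors made by neighbouring cells. Pericytes wrap capillaries and depend on platelet-derived growth factor signalling, and smooth muscle cells ring arteries and arterioles with a contractile apparatus of actin and myosin. In APP/PS1 and related mice these vessels are studied because amyloid is cleared across them and can be deposited in their walls.

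Total RNA libraries held 120958765 to 134147448 estimated counts in APP/PS1 and 123759886 to 146904552 in WT. Levels are given as CPM (estimated counts scaled to equal library size with TMM factors), and a log2 fold change sets APP/PS1 over WT, beside its standard error (SE). APP/PS1 replicate 3 stood apart: 142 of 14626 genes with a mean of at least 1 CPM were over 4 times higher there than in each other library, against 0 to 3 genes for any other library. The 8 hippocampal markers, among them Prox1 and Wfs1, were detected in all libraries and summed to 916, 817 and 513 CPM in APP/PS1 replicates 1, 2 and 3, against 869.5, 818 and 844 CPM in WT replicates 1, 2 and 4. The 10 choroid plexus markers summed to 2702, 5923 and 3631 CPM in APP/PS1, against 2321, 2727 and 2421 CPM in WT. The highest sum was that of APP/PS1 replicate 2. Of these 10 markers, 6 had an unadjusted p under 0.05 with edgeR, beside 3.42% of all genes. edgeR called 0 of them, beside 0.00554% of all genes, and none was at 0 in any library. The sums of both lists overlapped between genotypes, and so did those of other marker lists, given as APP/PS1 against WT. They were 167 to 257 against 224 to 254 CPM for microglia and macrophages and 6908 to 8191 against 7899 to 8697 CPM for astrocytes. Oligodendrocytes had 2554 to 3150.1 against 2691 to 3989 CPM and neurons 5905 to 7245 against 7182 to 7710.1 CPM. Ependyma had 28.3 to 43.9 against 22 to 34.9 CPM. Red blood cells had 185 to 536 against 173 to 348 CPM, with 2 of 5 genes at 0 in some library. In bulk RNA, fewer cells of a type and less RNA per cell cannot be told apart.

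The vessel genes as a whole lay close to equal levels in both genotypes. Their median log2 fold change was -0.02, with 13 positive and 19 negative, beside a median of 0.01 over all 18060 genes. With edgeR's quasi-likelihood test and Benjamini-Hochberg adjustment over all genes, 0 of the 32 passed a threshold of 0.05, where 0.00554% of all genes did. DESeq2, which called 0.145% of the genes it tested, and limma-voom also called 0 of the 32. At an unadjusted p under 0.05 there were 2 members with each of the 3 tools, which for edgeR is 6.25% of the members beside 3.42% of all genes: 1 higher, Kdr, where 1.9% of all genes were, and 1 lower, Ly6c1, where 1.52% were. The groups did not overlap for 4 members, 12.5%, beside 10.4% of all genes. Of these, 3 were higher, beside 5.63% of all genes, and 1 was lower, beside 4.76%.

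**Figure D1:**
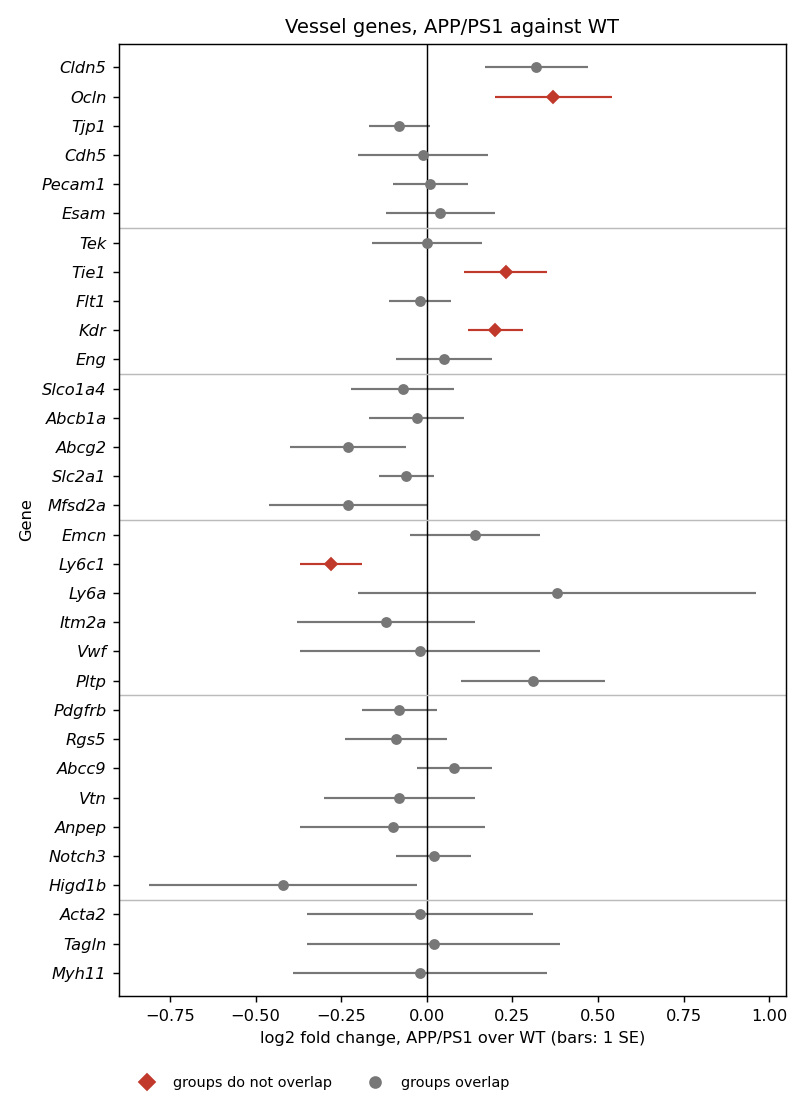
Log2 fold change of each vessel gene, APP/PS1 over WT, with bars of 1 SE (n = 3 libraries per genotype), in 6 classes from junction genes at the top to smooth muscle genes at the bottom. Red diamonds mark the 4 genes whose libraries do not overlap between genotypes (Ocln, Tie1, Kdr and Ly6c1), and the longest bar belongs to Ly6a.

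The junction genes seal endothelial cells to each other. Cldn5 (chromosome 16, 18776847 to 18778262, mm10), which encodes the main claudin of the blood-brain barrier, stood at 11.5, 9.06 and 12.7 CPM in APP/PS1 replicates 1, 2 and 3, against 8.60, 9.37 and 8.68 CPM in WT replicates 1, 2 and 4. APP/PS1 replicates 1 and 3 lay above all WT libraries and replicate 2 lay among them. On the log2 scale the difference was 0.32 (SE 0.15), with edgeR's adjusted p of 0.887, or 0.20 without APP/PS1 replicate 3. Ocln (chromosome 13, 100496504 to 100552718), encoding the junction protein occludin, had 15, 16.9 and 23.0 CPM in APP/PS1, against 14, 14.6 and 13.9 CPM in WT. The genotypes did not overlap, and the highest value came from APP/PS1 replicate 3. This gave a log2 fold change of 0.37 (SE 0.17, edgeR's adjusted p = 0.887), or 0.17 without APP/PS1 replicate 3. The choroid plexus markers, whose sums were above the WT median in all APP/PS1 libraries, belong to an epithelium that also has tight junctions, and their part in these values was not tested.

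The other junction genes overlapped between genotypes. Pecam1 (chromosome 11, 106654213 to 106715281), an adhesion molecule of all endothelium, had 19.6, 20.4 and 21.1 CPM in APP/PS1, against 18.4, 22.7 and 19.6 CPM in WT. Its log2 fold change was 0.01 (SE 0.11, edgeR's adjusted p = 0.986). Cdh5, the cadherin of endothelial adherens junctions, ranged over 16.8 to 26.3 CPM in APP/PS1 mice and 18.3 to 24.8 in WT mice. Esam, an endothelial adhesion molecule, ranged over 6.85 to 9.01 CPM in APP/PS1 mice and 6.35 to 8.24 in WT mice. Both were lowest in replicate 1 of each genotype. Tjp1, a scaffold of tight junctions that many cell types share, ranged over 200.2 to 239 CPM in APP/PS1 mice and 219 to 245 in WT mice.

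Of the 5 receptor genes, 2 separated the genotypes, where 10.4% of all genes did, and both were higher in APP/PS1 by small margins. Kdr (chromosome 5, 75932827 to 75979072), which encodes the main signalling receptor for vascular endothelial growth factor, had 20.7, 22.3 and 21.3 CPM in APP/PS1, against 18.8, 18.6 and 18.8 CPM in WT. The WT libraries were nearly identical and all APP/PS1 libraries lay above them. The log2 fold change was 0.20 (SE 0.08), a 1.15-fold difference, with an unadjusted p of 0.0439 and edgeR's adjusted p of 0.887. Tie1 (chromosome 4, 118471191 to 118489849), a partner of the angiopoietin receptor, had 7.23, 8.89 and 8.77 CPM in APP/PS1, against 6.93, 7.20 and 7.03 CPM in WT. APP/PS1 replicate 1 lay just above the highest WT library. This gave a log2 fold change of 0.23 (SE 0.12, edgeR's adjusted p = 0.887).

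The remaining receptors did not separate. Tek, the angiopoietin receptor itself, averaged 17.4 ± 2.73 CPM in APP/PS1 mice and 17.4 ± 2.56 in WT mice (SD, n = 3 each), with 0.00 as the log2 fold change (SE 0.16). Flt1, a second receptor for vascular endothelial growth factor that also acts as a decoy, averaged 88.8 ± 7.20 CPM in APP/PS1 mice and 89.8 ± 4.95 in WT mice. Eng, encoding the transforming growth factor co-receptor endoglin, averaged 24.0 ± 2.56 CPM in APP/PS1 mice and 23.2 ± 3.39 in WT mice. For these 3 genes the SE of 0.09 to 0.16 on the log2 scale leaves room for modest differences in either direction.

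All 5 transport genes had negative log2 fold changes, from -0.23 to -0.03, and none separated the genotypes. Abcg2 (chromosome 6, 58584491 to 58692451), an efflux pump, had 10.2, 14.7 and 10.8 CPM in APP/PS1, against 13.8, 12.7 and 15.5 CPM in WT. APP/PS1 replicates 1 and 3 lay below all WT libraries and replicate 2 lay among them. The log2 fold change was -0.23 (SE 0.17, edgeR's adjusted p = 0.887). Leaving out APP/PS1 replicate 2 gave -0.41, while leaving out APP/PS1 replicate 1 gave -0.13 and WT replicate 4 gave -0.15. Mfsd2a (chromosome 4, 122946850 to 122961194), a carrier of lysolipids that also restrains vesicle transport across the barrier, had 25.2, 20.1 and 13.5 CPM in APP/PS1, against 20.1, 25.0 and 24.2 CPM in WT. The low value came from APP/PS1 replicate 3, and the highest from APP/PS1 replicate 1. Its log2 fold change was -0.23 (SE 0.23, edgeR's adjusted p = 0.887), but -0.03 without APP/PS1 replicate 3 and -0.45 without APP/PS1 replicate 1.

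Slc2a1, the glucose transporter of the barrier, was the steadiest of all 32 genes, its highest library being 1.12 times its lowest. It averaged 91.8 ± 5.46 CPM in APP/PS1 mice and 95.4 ± 4.62 in WT mice (SD, n = 3 each). Abcb1a, which encodes the efflux pump P-glycoprotein, averaged 33.9 ± 6.16 CPM in APP/PS1 mice and 34.6 ± 2.30 in WT mice. Its close copy Abcb1b can share reads with it, and the summed level of both ranged over 32.6 to 43.1 CPM in APP/PS1 mice and 38.3 to 42.8 in WT mice. Slco1a4, an organic anion carrier, averaged 37.3 ± 5.81 CPM in APP/PS1 mice and 39.1 ± 5.15 in WT mice. Abcb1a and Slco1a4, like Abcg2, were lowest in APP/PS1 replicate 1.

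Among surface and secreted proteins of endothelium, Ly6c1 (chromosome 15, 75044018 to 75048920), a membrane-anchored antigen, had the smallest p of the members. It had 18.2, 16.9 and 18.9 CPM in APP/PS1, against 21.1, 22.2 and 22.3 CPM in WT. All APP/PS1 libraries lay below all WT libraries. The log2 fold change was -0.28 (SE 0.09), 0.823-fold, with an unadjusted p of 0.0145 and edgeR's adjusted p of 0.887. With each library left out in turn the value lay between -0.32 and -0.24. Reads of Ly6c1 can be shared with its near-identical neighbour Ly6c2, and the summed level was 18.4, 16.9 and 19.1 CPM in APP/PS1, against 24.6, 22.3 and 22.5 CPM in WT, again without overlap.

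Pltp (chromosome 2, 164839518 to 164857708), encoding phospholipid transfer protein, had 32, 52.4 and 55.2 CPM in APP/PS1, against 42.0, 37.5 and 33.3 CPM in WT. APP/PS1 replicates 2 and 3 were above all WT libraries and replicate 1 was the lowest of the 6. The log2 fold change was 0.31 (SE 0.21, edgeR's adjusted p = 0.887), and leaving out APP/PS1 replicate 1 gave 0.52, replicate 2 of that genotype 0.21 and replicate 3 of it 0.16. Ly6a (chromosome 15, 74994877 to 74998031), the stem cell antigen that marks brain endothelium in some mouse strains, varied most, its highest library being 6.26 times its lowest. It had 9.39, 7.74 and 10.9 CPM in APP/PS1, against 1.74, 10.1 and 9.61 CPM in WT. WT replicate 1 alone was low, and without it the log2 fold change was -0.08 in place of 0.38 (SE 0.58).

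Vwf, the von Willebrand clotting factor, ranged over 21.4 to 46.4 CPM in APP/PS1 mice and 20.9 to 40.3 in WT mice, and was lowest in replicate 1 of each genotype. Itm2a, an integral membrane protein, ranged over 10.1 to 19.5 CPM in APP/PS1 mice and 14.1 to 20.2 in WT mice. Emcn, the sialomucin endomucin, ranged over 5.29 to 8.24 CPM in APP/PS1 mice and 5.52 to 6.85 in WT mice. None of these 3 separated the genotypes, with edgeR's adjusted p from 0.896 to 0.995.

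**Figure D2:**
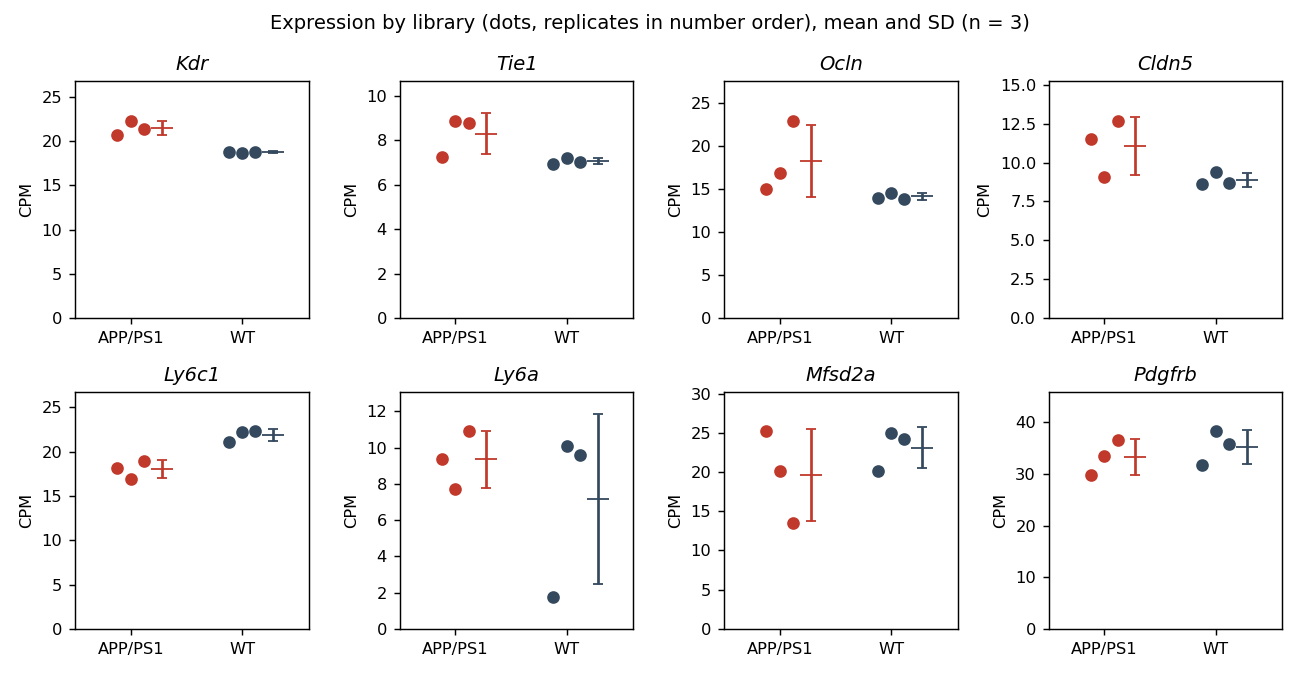
Levels of 8 vessel genes in CPM, with 1 dot per library and the mean and SD of 3 libraries beside the dots, APP/PS1 in red and WT in grey. Kdr, Tie1 and Ocln lie higher and Ly6c1 lower in APP/PS1 without overlap, and Ly6a shows the single low WT library at 1.74 CPM.

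Pericyte genes had a median log2 fold change of -0.08, with 2 of 7 positive, and none separated the genotypes. Pdgfrb (chromosome 18, 61045127 to 61085067), the growth factor receptor on which pericytes depend, had 29.8, 33.5 and 36.6 CPM in APP/PS1, against 31.8, 38.3 and 35.8 CPM in WT. The libraries interleave, and the log2 fold change was -0.08 (SE 0.11, edgeR's adjusted p = 0.894). Higd1b (chromosome 11, 102835761 to 102844141), a marker of pericytes, was a low gene with 44, 142 and 111 estimated counts in APP/PS1, against 112, 129 and 155 in WT. These correspond to 0.371, 1.05 and 0.812 CPM in APP/PS1, against 0.921, 1.02 and 1.05 CPM in WT. APP/PS1 replicate 1 alone was far below the rest. On the log2 scale the difference was -0.42 (SE 0.39, edgeR's adjusted p = 0.887), but -0.09 without that library and -0.75 without APP/PS1 replicate 2.

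The other pericyte genes were level within their spread. Rgs5, a regulator of G protein signalling enriched in pericytes, averaged 125 ± 9.23 CPM in APP/PS1 mice and 133 ± 24.5 in WT mice (SD, n = 3 each). Abcc9, the regulatory subunit of a vascular potassium channel, averaged 13.7 ± 1.66 CPM in APP/PS1 mice and 13.0 ± 0.469 in WT mice. Notch3, a receptor of mural cells, averaged 23.7 ± 2.57 CPM in APP/PS1 mice and 23.4 ± 1.23 in WT mice. Vtn, the matrix protein vitronectin, ranged over 27.3 to 46.1 CPM in APP/PS1 mice and 29.9 to 43.6 in WT mice. Anpep, the membrane aminopeptidase N, ranged over 4.76 to 8.65 CPM in APP/PS1 mice and 5.49 to 8.64 in WT mice. Vtn and Anpep were lowest in replicate 1 of each genotype.

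In the fit with no covariate, the smooth muscle genes differed little between genotypes and widely within each. Acta2 (chromosome 19, 34240336 to 34255585), encoding smooth muscle alpha actin, had 13.7, 26.3 and 31.0 CPM in APP/PS1, against 17.5, 31.4 and 23.1 CPM in WT. Tagln (chromosome 9, 45929628 to 45936058), encoding the actin-binding protein transgelin, had 4.6, 9.57 and 11.5 CPM in APP/PS1, against 6, 11.3 and 7.94 CPM in WT. Myh11 (chromosome 16, 14194527 to 14292188), the smooth muscle myosin heavy chain, had 13.2, 29.6 and 35.1 CPM in APP/PS1, against 18.7, 31.6 and 28.7 CPM in WT. For all 3 genes APP/PS1 replicate 1 was lowest and WT replicate 1 second lowest of the 6 libraries.

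Their log2 fold changes were -0.02, 0.02 and -0.02 with an SE of 0.33 to 0.37, and edgeR's adjusted p was 0.993 or more. The highest library was 2.29 to 2.67 times the lowest, beside a median ratio of 1.45 for endothelial genes, 1.45 for pericyte genes and 1.49 for all genes tested that have no library at 0. Without APP/PS1 replicate 1 the median log2 fold change of the 3 genes was 0.30, and without APP/PS1 replicate 3 it was -0.27. With the replicate number as a block it was -0.30, a value that rests on replicates 1 and 2 of each genotype only.

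**Figure D3:**
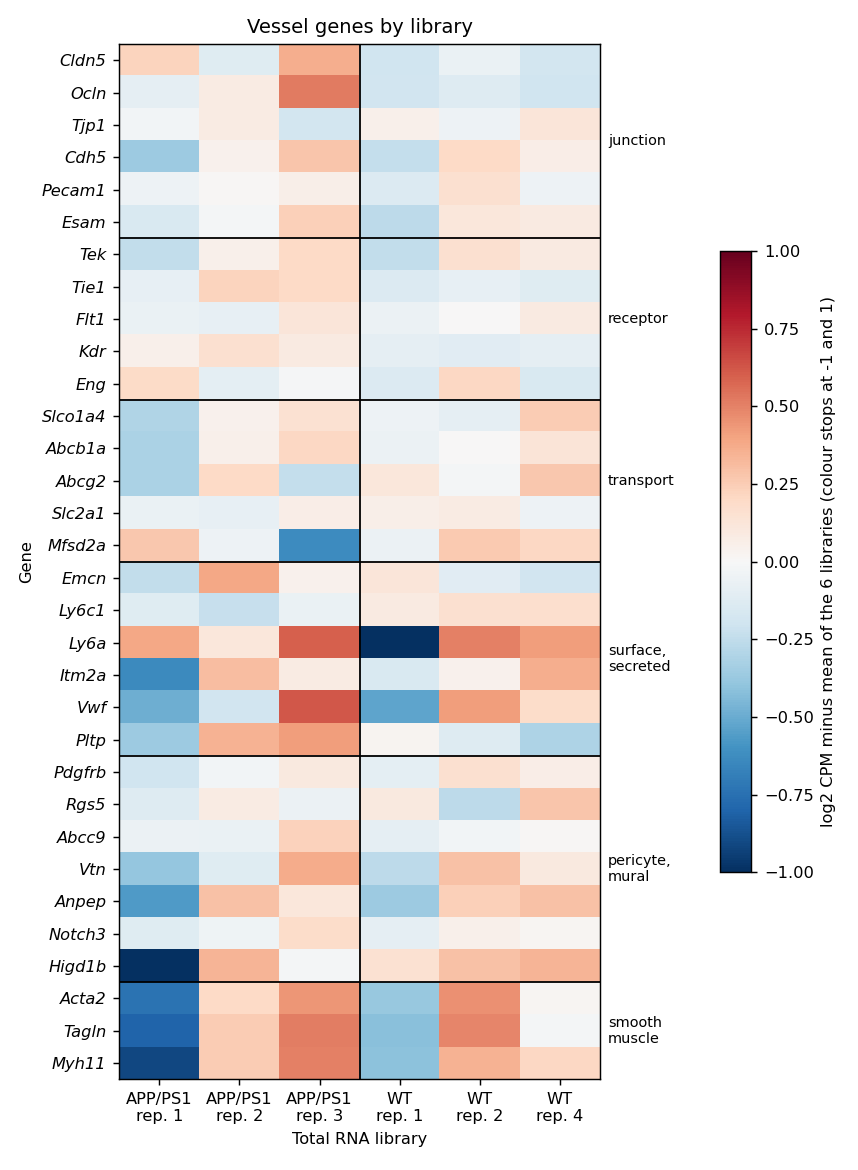
Log2 CPM of the 32 vessel genes in each library minus the gene's mean over the 6 libraries, red above and blue below it, with colours stopping at -1 and 1. Acta2, Tagln and Myh11 are blue in replicate 1 of both genotypes, and Ly6a is darkest in WT replicate 1.

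The low values of replicate 1 reached beyond smooth muscle. APP/PS1 replicate 1 was the lowest library for 16 of the 32 genes and the highest for 1. WT replicate 1 was the lowest for 7 and the highest for 0, and APP/PS1 replicate 3 was the highest for 15. The same counts were not made over all genes tested, so these describe the members only. Taken per library as the median over a class of log2 CPM minus each gene's mean, smooth muscle genes were -0.80, 0.25 and 0.50 for APP/PS1 replicates 1, 2 and 3, against -0.41, 0.46 and 0.02 in WT replicates 1, 2 and 4. Pericyte genes lay at -0.20, -0.03 and 0.11 in APP/PS1, against -0.09, 0.16 and 0.10 in WT. Endothelial genes lay at -0.11, 0.05 and 0.13 in APP/PS1, against -0.12, 0.02 and 0.09 in WT. The spread over libraries was thus widest for smooth muscle genes and narrow for both other classes.

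Further lists were low in the same libraries. The 16 further smooth muscle genes lay at -0.31, 0.15 and 0.33 in APP/PS1, against -0.49, 0.16 and 0.10 in WT, and the 10 markers of meningeal and perivascular fibroblasts at -0.96, 0.27 and 0.57 in APP/PS1, against -0.72, 0.46 and 0.11 in WT. The fibroblast markers summed to 235, 529 and 303 CPM in APP/PS1, against 258, 404 and 385 CPM in WT, none being at 0 in any library. For 8 of the 10 both replicate 1 libraries were the lowest, while Dcn and Pdgfra were lowest in APP/PS1 replicate 3. Dcn, for example, had 55.8, 69.9 and 43.9 CPM in APP/PS1, against 66, 61.4 and 60.6 CPM in WT. The part of fibroblasts in the smooth muscle values was not tested.

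**Figure D4:**
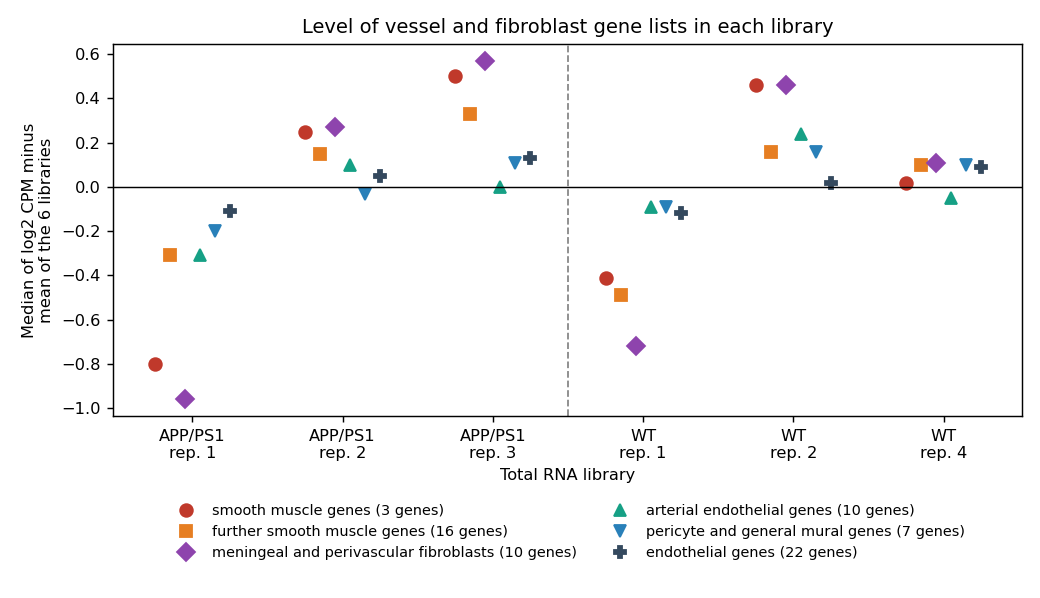
Level of 6 gene lists in each library, as the median over the list of log2 CPM minus the gene's mean over the 6 libraries, APP/PS1 left of the dashed line and WT right of it. Smooth muscle genes and fibroblast markers lie lowest in replicate 1 of both genotypes, from -0.96 to -0.41, while endothelial genes stay between -0.12 and 0.13.

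Promoter sequences from RefSeq (GRCm38.p6, the same build as mm10) were searched for a motif of such genes. Contractile genes are classic targets of serum response factor, which binds the CArG box. The search was for CCNNNNNNGG with at most 1 of the 6 middle letters being neither A nor T, which reads the same on both strands, in the 250 bases before any start the table gives for a gene. The form with only A and T in the middle had been searched first. It was found in 0 of the 23 vessel genes with a promoter in the table, beside 1.5% of the tested genes. The wider form was found in 5 of these 23 (21.7%), namely Acta2 and the endothelial genes Ocln, Kdr, Eng and Slco1a4, beside 9.57% of 13533 tested genes. Acta2 was the 1 smooth muscle member with a promoter in the table. Among the further smooth muscle genes Myl9, a myosin light chain, and Srf, serum response factor itself, held the wider form, 2 of 13. Both also held the form with only A and T, which is 15.4% of the 13 beside 1.5% of the tested genes. Myl9 stood at 7.97, 14.6 and 16.2 CPM in APP/PS1, against 9.24, 16.5 and 14.8 CPM in WT, low in the same libraries as Acta2. Srf did not follow them, its lowest library being APP/PS1 replicate 3. The other further smooth muscle genes with a promoter in the table had no match and were mixed. Cnn1, Des, Tpm2, Lmod1, Mylk and Pln were lowest in replicate 1 of both genotypes, while Tpm1, Sncg, Ckb, Casq2 and Mustn1 were not. Cnn1, for instance, had 0.802, 1.72 and 2.38 CPM in APP/PS1, against 0.699, 1.81 and 0.849 CPM in WT. The matches of Acta2 and Myl9 are shown 5′ to 3′, in capitals, with the bases on either side in lower case. They lie at chr19:34255438-34255467 and chr19:34255388-34255417 on the minus strand for Acta2 and at chr2:156775293-156775322 and chr2:156775355-156775384 on the plus strand for Myl9.
Acta2, 84 bases before the start: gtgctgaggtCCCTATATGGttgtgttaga
Acta2, 34 bases before the start: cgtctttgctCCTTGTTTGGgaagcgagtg
Myl9, 161 bases before the start: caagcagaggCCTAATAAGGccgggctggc
Myl9, 99 bases before the start: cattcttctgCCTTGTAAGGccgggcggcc

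The start is the one the promoter table takes, which for both genes lies inside the longest annotated span. A match describes the letters in this window and is not a measured binding site.

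Small RNA libraries gave a second view of the vessel wall. miR-126a lies in an intron of the endothelial gene Egfl7, and miR-143 and miR-145a come from a common precursor that is abundant in smooth muscle. The mature sequence of miR-126a-3p (RefSeq, GRCm38.p6, chr2:26591402-26591423, plus strand) is shown with its seed, bases 2 to 8, in capitals, because it identifies the endothelial miRNA counted here.
miR-126a-3p: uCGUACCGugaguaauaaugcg

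miR-126a-3p had 10147, 12309 and 12859 CPM in the columns headed APP1, APP2 and APP3, against 9748, 13342 and 12162 CPM in those headed WT1, WT2 and WT4. The column headed WT1 was lowest and the column headed APP1 next. The genotypes overlapped, with a log2 fold change of 0.00 (SE 0.17). miR-126a-5p averaged 387 ± 40.7 CPM in APP/PS1 mice and 411 ± 24.7 in WT mice (SD, n = 3 each). Its host gene Egfl7 in total RNA stood at 11.9, 11.6 and 9.81 CPM in APP/PS1, against 11.7, 12.1 and 12.6 CPM in WT.

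miR-143-3p had 6065, 11709 and 12029 CPM in the columns headed APP1, APP2 and APP3, against 7816, 10504 and 9742 CPM in those headed WT1, WT2 and WT4. The column headed APP1 was lowest and the column headed WT1 next. The log2 fold change was 0.09 (SE 0.26). miR-145a-5p had 273, 357 and 339 CPM in APP/PS1 columns, against 206, 257 and 400.1 CPM in WT columns, and was lowest in the columns headed WT1 and WT2. miR-145a-3p had 67.9, 123 and 131 CPM in APP/PS1 columns, against 64.0, 91.5 and 95.7 CPM in WT columns. miR-143-5p had 10.5, 25.5 and 23.6 CPM in APP/PS1 columns, against 15.3, 19.9 and 18.9 CPM in WT columns. Small RNA columns could not be matched to mice of the total RNA set and were compared by genotype only.

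With edgeR's test over 703 miRNAs 0 passed the threshold, which is 0% called, beside 3.56% at an unadjusted p under 0.05, and DESeq2 called 0 as well. None of the 6 vessel miRNAs had an unadjusted p under 0.05, and all 6 overlapped between genotypes, where 7.11% of miRNAs did not.

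**Figure D5:**
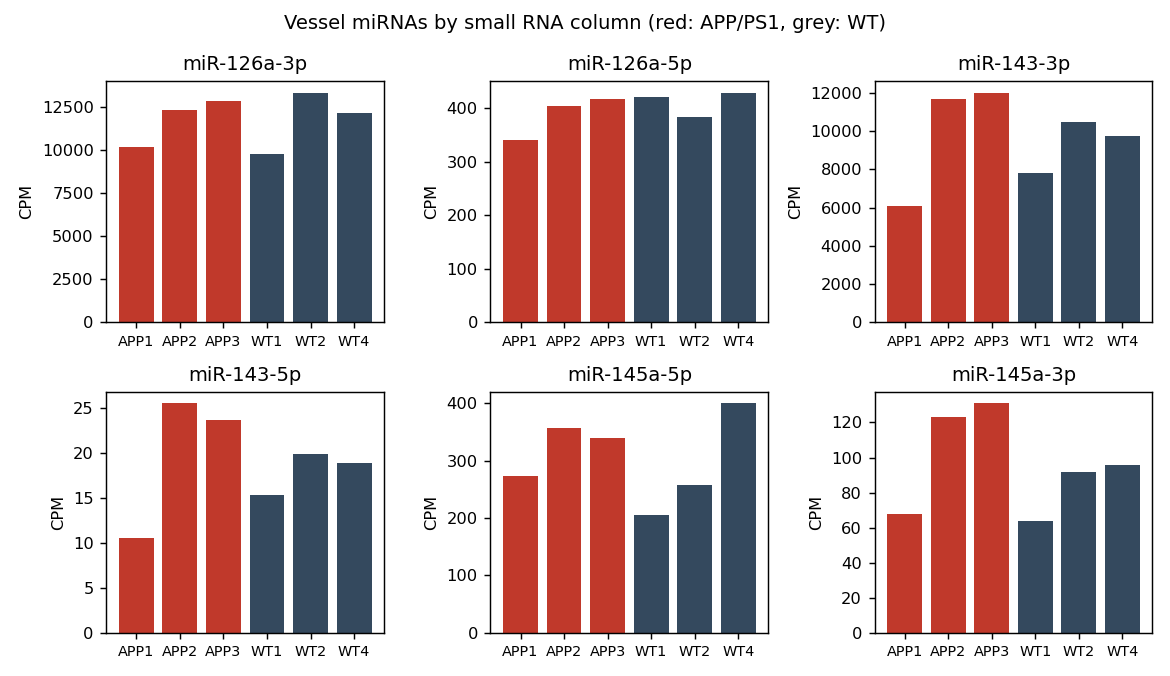
Levels of 6 vessel miRNAs in CPM in each small RNA column, APP/PS1 columns in red at the left and WT columns in grey at the right. miR-126a-3p, miR-143-3p, miR-143-5p and miR-145a-3p are lowest in the columns headed APP1 and WT1.

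Around the 32 markers, 11 lists of other vessel genes hold 155 genes, all of which were tested. With edgeR 0 of them passed over all genes and 5 (3.23%) had an unadjusted p under 0.05, close to the background of 3.42%. limma-voom also called 0, and DESeq2 called 1, Selp. The list medians ran from -0.12 for the 12 vascular ligands, 3 of them positive, to 0.50 for the 11 endothelial activation genes, 8 of them positive.

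Of the 11 endothelial activation genes, Selp and Icam1 separated the genotypes, where 10.4% of all genes did, and the other 9 overlapped. The median of the list per library, as log2 CPM minus each gene's mean, was -0.02, -0.04 and 0.79 in APP/PS1 replicates 1, 2 and 3, against -0.38, -0.14 and -0.11 in WT replicates 1, 2 and 4, so that its high value lay in APP/PS1 replicate 3, the library that stood apart. Selp, P-selectin, which captures leukocytes and is also made by platelets, had 55, 17 and 93 estimated counts in APP/PS1, against 0, 5 and 4 in WT. All APP/PS1 libraries lay above all WT libraries. Taking 4 estimated counts as 1 fragment, 41 fragments in APP/PS1 and 2 in WT give a ratio of 20.8, with an exact binomial 95% interval of 5.40 to 177 that covers counting error only. Selp passed the filter on low counts only through the APP/PS1 libraries, where it was high. Its ratio and p values are therefore a description and no support for a difference. edgeR's unadjusted p was 0.00451 and its adjusted p 0.887, and DESeq2's adjusted p was 0.0301. Over the 11 settings that kept Selp, adjusted p ran from 0.0301 to 0.995. It dropped out with a mean count of at least 40 and with division by 4. Icam1, a ligand for leukocyte integrins, had 4.92, 4.12 and 4.96 CPM in APP/PS1, against 3.11, 3.10 and 2.38 CPM in WT. These did not overlap either, with a log2 fold change of 0.70 (SE 0.17), an unadjusted p of 0.00553 and edgeR's adjusted p of 0.887. Sele, E-selectin, chosen after its values were seen, had 61, 0 and 38 estimated counts in APP/PS1, against 4, 0 and 13 in WT, and overlapped. Icam2, another integrin ligand, stood at -0.02 on the log2 fold change scale (SE 0.35), and Vcam1, which binds leukocytes on inflamed vessels, 0.21 (SE 0.16).

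Genes of the Wnt pathway that maintains the barrier had a median log2 fold change of 0.07, with 9 of 16 positive. Lrp5, a Wnt co-receptor, had 21.2, 21.7 and 20.9 CPM in APP/PS1, against 18.4, 19.1 and 16.4 CPM in WT, without overlap. Its log2 fold change was 0.24 (SE 0.09, unadjusted p = 0.0325, edgeR's adjusted p = 0.887). Ndp, the ligand norrin, had 3.05, 3.38 and 5.31 CPM in APP/PS1, against 2.75, 2.78 and 2.83 CPM in WT, also without overlap. Its log2 fold change was 0.49 (SE 0.24, edgeR's adjusted p = 0.887), or 0.20 without APP/PS1 replicate 3. Among ligands for vessel receptors, Jag1, a Notch ligand, averaged 14.8 ± 1.09 CPM in APP/PS1 mice and 16.5 ± 0.442 in WT mice, and Vegfb averaged 30.9 ± 1.5 CPM in APP/PS1 mice and 33.9 ± 2.02 in WT mice (SD, n = 3 each).

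The further junction genes gave a median log2 fold change of 0.21 (9 of 12 positive). Cgnl1, encoding the junction protein paracingulin, had 45.2, 82.1 and 96.2 CPM in APP/PS1, against 27.5, 51.0 and 49.6 CPM in WT, and Cgn, cingulin, averaged 8.34 ± 0.640 CPM in APP/PS1 mice and 7.06 ± 0.698 in WT mice. Both genes overlapped between genotypes. The further transporters had a median of 0.05, with 10 of 17 positive. Lrp8, a lipoprotein receptor, averaged 132 ± 8.70 CPM in APP/PS1 mice and 120.1 ± 6.40 in WT mice (SD, n = 3 each), and did not overlap. Slco1c1, a thyroid hormone carrier, ranged over 48.0 to 73.0 CPM in APP/PS1 mice and 46.4 to 54.1 in WT mice.

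Further endothelial genes gave a median log2 fold change of -0.02 (11 of 25 positive). Cd34, a sialomucin of endothelium and blood progenitors, had 32.8, 29.9 and 24.3 CPM in APP/PS1, against 34.6, 37.4 and 36.4 CPM in WT, lower without overlap. Its log2 fold change was -0.32 (SE 0.12, unadjusted p = 0.0353, edgeR's adjusted p = 0.887), or -0.21 without APP/PS1 replicate 3. Mmrn2, an endothelial matrix protein, had 6.31, 6.66 and 6.67 CPM in APP/PS1, against 5.30, 5.98 and 5.41 CPM in WT, higher without overlap. Arterial genes had 5 of 10 positive values and a median of -0.03, and their smallest p values belonged to Hey1, a Notch target at 28.1 ± 1.03 CPM in APP/PS1 mice and 30.4 ± 2.91 in WT mice, and to Efnb2, ephrin B2, at 54.0 ± 7.34 CPM in APP/PS1 mice and 58.3 ± 4.13 in WT mice. Venous genes gave a median log2 fold change of 0.18 (5 of 7 positive), among them Vwa1 at 20.0 ± 1.18 CPM in APP/PS1 mice and 18.0 ± 1.15 in WT mice and Ackr1, a chemokine-binding receptor, at 23.0, 19.2 and 40.3 CPM in APP/PS1, against 22.4, 21.2 and 18.9 CPM in WT.

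Basement membrane genes, which encode the matrix shared by endothelium and mural cells, had a median of 0.07, with 8 of 14 positive. Lamb1, a laminin chain, had 60.7, 66.4 and 59.2 CPM in APP/PS1, against 52.7, 53.7 and 55.5 CPM in WT, without overlap. Its log2 fold change was 0.20 (SE 0.08, unadjusted p = 0.0360, edgeR's adjusted p = 0.887). Nid2, a nidogen, averaged 11 ± 2.26 CPM in APP/PS1 mice and 9.02 ± 1.28 in WT mice.

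The further mural lists had medians of 0.05 for pericytes, with 11 of 19 positive, and 0.18 for smooth muscle, with 9 of 16 positive, and their extreme values came from 1 library. Zic1, a transcription factor of pericytes and of several brain regions, had 32.4, 51.6 and 411 CPM in APP/PS1, against 37.8, 75.7 and 25.4 CPM in WT. Pde5a, a phosphodiesterase of vascular muscle, had 21.3, 21.0 and 103 CPM in APP/PS1, against 17.4, 21.7 and 20.9 CPM in WT. Casq2, a calcium-storing protein of muscle, had 1.86, 2.10 and 16.5 CPM in APP/PS1, against 2.02, 1.63 and 1.35 CPM in WT. The high value of each was APP/PS1 replicate 3, and without it their log2 fold changes were -0.14, 0.08 and 0.24 in place of 1.83, 1.28 and 2.03. Srf had 69.7, 64.4 and 47.2 CPM in APP/PS1, against 74.9, 74.4 and 71.8 CPM in WT, lower without overlap (log2 fold change -0.29, SE 0.15, edgeR's adjusted p = 0.887), and its value was -0.14 without APP/PS1 replicate 3.

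Leaving out APP/PS1 replicate 1 moved the class medians. Without it the median log2 fold change of the endothelial genes was 0.12 in place of 0.00 and that of the pericyte genes 0.08 in place of -0.08. In that fit 5 of the 32 members (15.6%) had an unadjusted p under 0.05, beside 8.17% of all genes, and 0 passed edgeR's adjusted threshold. They were Tie1, Kdr, Ocln and Pltp, higher, with log2 fold changes of 0.33, 0.22, 0.50 and 0.52, and Ly6c1, lower, with -0.29 (edgeR's adjusted p = 0.563 for each).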

How the data were processed

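The 2 deposited tables for total and small RNA were used. Per the labels' protocols, RNA was extracted with TRIzol and made into stranded total RNA and small RNA libraries. The total RNA table holds the authors' estimated counts per gene symbol, as whole numbers used as deposited, and the small RNA table raw counts per mature miRNA, as deposited. HISAT2, StringTie, DESeq and the build mm10 are named in the submitters' processing notes, without roles. The counting step, annotation and strand setting are unstated, so reads of overlapping genes (Pltp with Ctsa, Tagln with Pcsk7, Higd1b with Eftud2, Abcb1a with Rundc3b, Eng with Fpgs) may be shared. Over the 6 libraries the value 4 was found 1817 times and 3 was found 897 times, from which about 4 estimated counts were taken as 1 fragment. Depth in fragments is therefore uncertain, and the small RNA columns held 15593728 to 21631169 counts. The spread between libraries set the precision of all but the lowest genes (biological coefficient of variation 26.5% in total RNA, 26.2% in small RNA).

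APP/PS1 was compared with WT in R 4.3.3 by the quasi-likelihood test of edgeR 4.0.16, with TMM scaling, edgeR's default filter, no covariate and Benjamini-Hochberg adjustment over all features. The SE comes from the fold change and the F statistic. In data simulated for the total RNA comparison over 18060 genes, 39 of 100 genes changed 2-fold and 88 of 100 changed 4-fold were called. Other settings were RLE size factors, no filter, a mean count of at least 40, DESeq2 1.42.0, limma-voom (limma 3.58.1), division by 4, a replicate block, and each library left out. The members, lists and tests were chosen with earlier results of these data known. Named were all members, with 14 of them in full (2 per class by smallest p, all under 0.05 unadjusted, and Cldn5, Pecam1, Pdgfrb and Acta2), and the 2 genes of each further list with the smallest p. Coordinates and sequences are from RefSeq GRCm38.p6, which held all 32 symbols.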

Additional observations from a re-analysis of the deposited data

How the results depend on the processing

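edgeR called 0 of the 32 vessel genes, and so did every other setting that was run. Over all genes it called 1, DESeq2 called 26, the replicate block 2, and leaving out a library gave 0 to 6 (without APP/PS1 replicate 1 it was 6, replicate 2 gave 1 and replicate 3 gave 5; without WT replicate 1 or 2 it was 0, and replicate 4 gave 4). Over the same leave-one-out fits the members at an unadjusted p under 0.05 numbered 0 to 5, and the median log2 fold change ran from -0.06 to 0.12 for endothelial, from -0.16 to 0.08 for pericyte and from -0.27 to 0.30 for smooth muscle genes. Among miRNAs edgeR called 0, 5 with no filter and 0 to 3 with a column left out (3 without the column headed APP1). The cause was not tested. Single genes, miRNAs included, kept their direction and side of the threshold in 705 comparisons, reversed in 60 and newly passed in 1, Selp with DESeq2.

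Leaving out libraries reversed these log2 fold changes, given as lowest to highest: Cdh5 -0.17 to 0.15, Flt1 -0.09 to 0.03, Eng -0.03 to 0.18, Slco1a4 -0.17 to 0.06, Abcb1a -0.15 to 0.11, Itm2a -0.33 to 0.11, Vwf -0.42 to 0.20, Vtn -0.32 to 0.09, Anpep -0.28 to 0.12, Acta2 -0.27 to 0.26, Myh11 -0.31 to 0.30, Emcn -0.04 to 0.28, Tagln -0.25 to 0.33, Pecam1 -0.05 to 0.10, Esam -0.08 to 0.13, Abcc9 -0.03 to 0.13, Notch3 -0.08 to 0.08, Zic1 -0.14 to 2.39, Ly6a -0.08 to 0.72, Rgs5 -0.23 to 0.03, miR-126a-5p -0.12 to 0.02, miR-143-3p -0.05 to 0.36, miR-143-5p -0.09 to 0.46, miR-145a-5p -0.01 to 0.49. limma-voom gave -0.01 for Tagln. Replicate numbers 1 and 2 occur in both genotypes. Over all genes, deviations of same-numbered libraries correlated at 0.09 and -0.04, and those of differently numbered libraries at -0.08 to 0.07. A correlation over all genes cannot show whether some genes share a factor by number, so whether the numbers pair the mice is unknown. The block fit takes its genotype difference only from replicates 1 and 2 of each genotype. APP/PS1 replicate 3 and WT replicate 4 are alone in their blocks and add nothing to that difference. Values of the block fit thus also lack these 2 libraries, and its SE and p values have little replication behind them. With the replicate block the value was 0.02 for Tjp1, -0.03 for Pecam1, -0.01 for Esam, 0.01 for Mfsd2a, 0.05 for Rgs5, -0.06 for Notch3, -0.31 for Tagln, 0.03 for Efnb2, -0.05 for Ackr1 and -0.39 for Zic1. The block also gave 0.15 for Ocln, 0.18 for Cldn5, -0.10 for Abcg2 and 0.05 for Pltp. For Acta2 it gave -0.30 (SE 0.09), for Myh11 -0.30 (SE 0.13) and for Vtn -0.27 (SE 0.10). edgeR's unadjusted p in this fit was 0.02, 0.0641 and 0.0467 for these 3 genes, and its adjusted p was 0.979 for each. For small RNA no block was fitted: its column headings carry numbers, but they lack the ending of the small RNA sample titles and were used for the genotype only. With 3 mice per genotype, 39 of 100 simulated 2-fold changes were called, so smaller differences in vessel genes could go undetected.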

Other observations

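Ly6a and its neighbours on chromosome 15 were read together after their values had been seen. Ly6c2 (75108161 to 75112066, mm10) stood at 0.228, 0 and 0.198 CPM in APP/PS1 replicates 1, 2 and 3, against 3.58, 0.0946 and 0.211 CPM in WT replicates 1, 2 and 4. Its 1 high value was thus in the WT library with 1.74 CPM of Ly6a. Ly6c1, which lies between both genes, had 21.1 CPM in WT replicate 1 and 22.2 and 22.3 CPM in the other WT libraries. Ly6e, on the other side of Ly6a, had 170 CPM in WT replicate 1, against 169 and 174 CPM in the other WT libraries. Reads can be shared between Ly6c1 and Ly6c2, so the split between these 2 genes is uncertain.

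WT replicate 1 was over 4 times lower than each other library for 5 of 14626 genes with a mean of at least 1 CPM: Ly6a, Gm1943, Gm2192, Cdh15 and Pln. Pln, encoding phospholamban, a regulator of the calcium pump of muscle and a member of the further smooth muscle list, had 5.81, 6.42 and 7.96 CPM in APP/PS1, against 0.271, 6.86 and 5.82 CPM in WT. The other libraries had 3 to 8 such genes each.

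Mgp, matrix Gla protein, an arterial gene chosen after its values were seen, followed the smooth muscle genes over the libraries, with 3.06, 14.8 and 13.0 CPM in APP/PS1, against 4.32, 14.4 and 8.11 CPM in WT. Edn1, encoding the vasoconstrictor endothelin, likewise chosen after its values were seen, had 0.903, 1.38 and 2.43 CPM in APP/PS1, against 0.658, 1.55 and 0.625 CPM in WT.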
